A study of Vitis vinifera with 2 samples.

Results

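First-intron peaks are those whose centre the authors' annotation places in intron 1 of a gene with 2 or more introns. They were read from the annotation text of the 1 deposited peak list, and they numbered 2016 of 49173 peaks, or 4.10% (95% Wilson interval 3.93 to 4.28%), in 1779 genes. They made up 28.04% of the 7190 intron peaks.

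The list came from chromatin immunoprecipitation followed by sequencing (ChIP-seq) of grapevine (Vitis vinifera) leaves. Both libraries were from transgenic plants, 4 months old and without water for 20 days, that overexpressed VlbZIP30 fused to 3 copies of the FLAG tag from the CaMV 35S promoter, which is active in most plant tissues. There were 1 anti-FLAG library and 1 control library, which its title calls input and its antibody field IgG. With 1 library per group, without unstressed or untagged plants, no replicate error exists and no test between conditions was possible. Peaks are not replicates, so values are described by counts, shares and medians, and every interval covers counting error only. Read counts were not used here, and the depth of the libraries is unknown.

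VlbZIP30 is a basic leucine zipper (bZIP) transcription factor. Plant bZIP factors are known to bind DNA sites with an ACGT core, among them the abscisic acid response elements through which many drought genes are switched on. Introns near the transcription start site (TSS) of plant genes are known to be able to raise expression, and some first introns carry regulatory elements, as in the flowering repressor gene FLC of Arabidopsis. The list pairs no gene name with its identifiers, and 0 of the 1779 host identifiers matched the 29591 genes of the RefSeq table, so regions are given by position as in the authors' list; its genome build is not given in the sources used here.

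First-intron peaks scored lower at the median than the list as a whole. Of the 416 above the upper quartile of the list's scores, 235 (56.5%) also covered a TSS. Above the same quartile, 406 of 416 first-exon peaks and 90 of 365 inner and last intron peaks covered one. The deposited score, whose scale is not named, ranks peaks within the list. First-intron peaks had a median score of 5.26 (95% order-statistic interval 4.996 to 5.48; quartiles 2.82 and 15.2; highest 112.6), against 7.56 for all peaks. Of the members, 416 scored above the upper quartile of the whole list, 18.5, which is 20.6% (18.9 to 22.5%) beside 24.9% of all peaks. A further 799 scored at or below the lower quartile, 3.64, which is 39.6% beside 26.6% of all peaks. First introns were thus less represented at the top of the list and more at its bottom, yet held members in both. Low scores were repeated often: 136 members shared the value 2.45 and 130 the value 2.82.

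Members were shorter than the list as a whole, with a median length of 461 bp (443 to 480) against 517 bp. Score and length were related across the 2016 members, which share 1 library pair (Spearman rho 0.70, a description). Their centres lay at a median of 964.5 bp from the nearest TSS (quartiles 459.75 and 1727 bp). For 97.1% of members the nearest TSS was that of the gene that held the intron.

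The distances formed a pair of crests. Because the promoter class takes centres up to 100 bp downstream of a TSS, the lowest distance of a member from its own TSS was 101 bp. From 100 to 200 bp there were 205 centres, and the number fell to 72 from 400 to 500 bp. It was 120 from 700 to 800 bp, and 106 from 1100 to 1200 bp, and 18 from 1900 to 2000 bp. The crest next to the TSS was made of peaks that spanned the TSS, 182 of the 205 in its first 100 bp, and the crest near 1 kb of peaks that did not, 107 of 120.

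**Figure D1:**
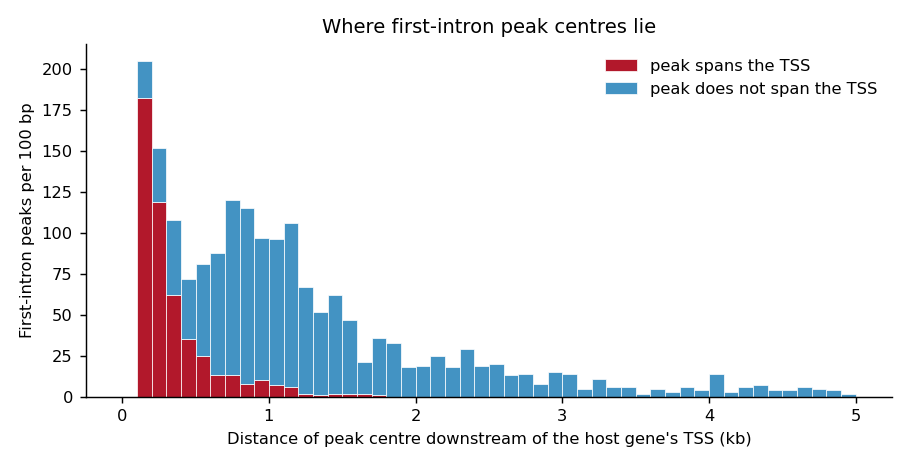
Number of first-intron peaks per 100 bp of distance from the peak centre to the TSS of the host gene, for the 1957 members whose nearest TSS is the host's (84 beyond 5 kb are not drawn). Red bars count peaks that span the TSS and blue bars, stacked on them, those that do not; the red bars hold 182 of the 205 centres from 100 to 200 bp, the blue ones 107 of the 120 from 700 to 800 bp.

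Peaks that spanned a TSS were 490 of the 2016, or 24.3% (22.5 to 26.2%), beside 25.3% of all peaks. They had a median score of 17.8 (15.8 to 19.9) and a median length of 1089.5 bp. The other 1526 had a median score of 3.64 (3.64 to 4.08) and a median length of 368 bp. The difference of medians was 14.1, and 6.14 when peaks were compared within strata of similar length. Of the 10 length strata, 6 had enough peaks of both kinds, with 477 of the 490 TSS-spanning peaks. Lengths still differ within a stratum. A long peak is more likely to reach a TSS, so length and reach cannot be told apart in the unmatched values. Among centres under 500 bp from the TSS, the difference was 12.4.

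TSS-spanning peaks were 235 of the 416 members above the upper quartile of the list; of the other 181, 92 lay 2 kb or more from a TSS. Peaks that spanned a TSS were also 38 of the 50 highest-scoring members, 10 of the 10 highest-scoring and 47 of the 50 longest. The corresponding shares over the top-scoring and longest peaks of the whole list were not computed.

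**Figure D2:**
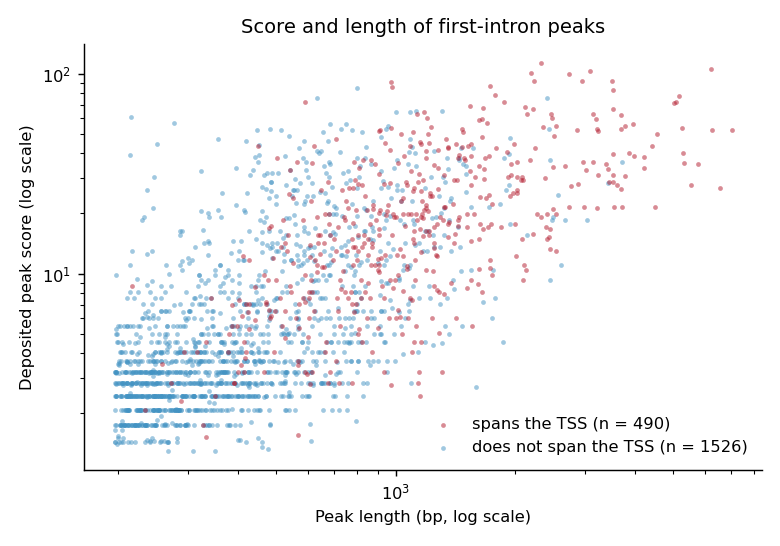
Deposited score against peak length, both on log scales, for the 2016 first-intron peaks, 1 point each. Red points span the TSS (n = 490, median length 1089.5 bp), blue points do not (n = 1526, median length 368 bp); rows of points at low scores are repeated score values.

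The highest-scoring member, at 112.6, covered 2322 bp of chromosome 15 (18421729 to 18424050), with its centre 573 bp inside VIT_15s0046g01440, a gene with 12 introns. The next, at 105.6, was 6222 bp long and lay on chromosome 18 (12300885 to 12307106), 918 bp from the TSS of a gene with 2 introns. A peak of 3089 bp on chromosome 7 (3730490 to 3733578) scored 103.0. All 3 covered the start of the gene as well as the intron.

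The remaining 7 of the 10 highest scored between 86.5 and 100.2. On chromosome 8, a peak from 18737953 to 18740147 scored 100.2 and was centred 195 bp from the TSS. A peak on chromosome 9 (10286527 to 10289254) scored 100.1. Chromosome 4 held 3 of the 10, at 20820224 to 20823162 (score 91.9, in a gene with 24 introns), at 5775398 to 5778905 (91.6) and at 8722758 to 8724486 (86.5). Chromosome 16 held a peak with a score of 91.4 (15994774 to 15997000). The remaining one, with 91.0, was on chromosome 19 (10515221 to 10516193). This peak was the shortest of the 10, at 973 bp, with its centre 163 bp from the TSS. The host genes of these 10 peaks had 0 separate promoter peaks. Such a peak was infrequent in all 490 genes whose first-intron peak spanned a TSS, at 10.6%.

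The 5 longest members also spanned the TSS. The longest, with 7020 bp, lay on chromosome 10 (190471 to 197490) and scored 52.0. A neighbour on the same chromosome (257106 to 263676) was 6571 bp long and scored 26.8, and a peak of 6257 bp on chromosome 5 (4481731 to 4487987) scored 52.0. The fifth, on chromosome 8 (4701335 to 4707113), was 5779 bp long and scored 35.4; the second-ranked member by score was also among these 5.

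From 1 kb on, median scores were higher in ranges farther from the nearest TSS. That TSS was another gene's for 23 of the 320 members from 2 to 5 kb and 23 of the 107 at 5 kb or more. Distance is thus not always depth in the intron. Peaks 2 kb or more from the nearest TSS are called deep below. Among members that did not span a TSS, the median score was 3.22 (2.82 to 3.54, n = 139) under 500 bp and 3.22 (2.82 to 3.22, n = 432) from 500 to 1000 bp. It was 3.64 (3.64 to 4.08, n = 528) from 1 to 2 kb. From 2 to 5 kb it was 5.98 (5.26 to 6.49, n = 320), and at 5 kb or more 9.85 (6.49 to 12.97, n = 107). Median lengths in these last 3 ranges were similar, at 405.5, 421 and 395 bp. The share above the upper quartile of the list, 24.9% of all peaks, went with the scores, at 11.2%, 19.1% and 29.0%.

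In inner and last introns the medians from 1 kb on stayed between 3.22 and 3.64. Their peaks that did not span a TSS had a median of 3.47 (3.22 to 3.64, n = 1091) from 1 to 2 kb, 3.22 (3.22 to 3.22, n = 1885) from 2 to 5 kb and 3.64 (3.22 to 3.64, n = 995) at 5 kb or more. Introns of genes with 1 intron, which stand just outside the rule, had 5.37 (n = 198) from 2 to 5 kb and 10.5 (5.98 to 17.8, n = 50) at 5 kb or more. Intergenic peaks 5 kb or more upstream of a TSS had a median of 9.26 (n = 3427), and exon peaks as deep in their nearest gene 3.64 (n = 394).

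**Figure D3:**
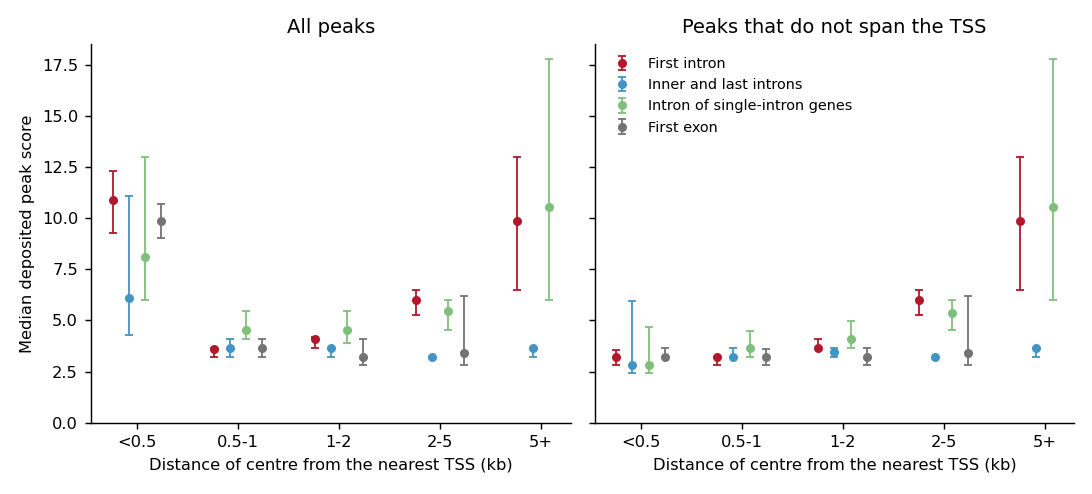
Median deposited score by distance of the peak centre from the nearest TSS, for first introns, inner and last introns, introns of single-intron genes and first exons; left, all peaks, right, peaks that do not span the TSS. Bars are 95% order-statistic intervals; first introns stand at 9.85 and inner and last introns at 3.64 from 5 kb on.

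Taken from 2 kb on, 427 members in 330 genes had a median of 6.49 (5.48 to 7.56), against 3.22 (3.22 to 3.63) for 2893 inner and last intron peaks. Within 10 strata of length, first-intron peaks were higher in 10. First introns were the higher on each of the 19 numbered chromosomes, where medians of the deep first-intron peaks ran from 4.52 to 20.5 (7 to 41 peaks each) and those of deep inner and last intron peaks from 3.07 to 3.64. Chromosome 14 held 21 of the 107 members at 5 kb or more. Without it, the difference from 2 kb on stayed 3.27. Under 2 kb, peaks that spanned no TSS had medians of 3.30 (n = 1099) in first introns and 3.22 (n = 1431) in inner and last introns, and first introns were higher on 7 and lower on 5 of the 19 chromosomes.

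The 5 highest-scoring peaks that spanned no TSS were between 634 and 2400 bp long, each longer than the median of 368 bp for such members. At 84.8, the highest covered 797 bp of chromosome 4 (5998000 to 5998796) and lay 4691 bp inside a gene with 6 introns. Next came a peak on chromosome 18 (6384726 to 6387125, score 75.5), 2020 bp inside its gene. A peak of 634 bp on chromosome 13 (22760742 to 22761375) scored 75.1 at 1029 bp. On chromosome 5 a peak from 24816242 to 24817363 scored 65.1 at 2052 bp, and on chromosome 2 one from 5085879 to 5087190 scored 65.0 at 8210 bp. The 3 of these 5 on chromosomes 18, 13 and 5 were in genes that also had a promoter peak. This selection was chosen after the values were seen.

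Some members lay very far inside their gene. The host TSS could be placed for 1983 of the 2016 members and not for 33. Among the 1983, the farthest, on chromosome 1 (14215372 to 14215693), was 16681 bp from the TSS of a gene with 13 introns and scored 3.64. Its neighbour in the same intron (14214598 to 14215150) lay at 16023 bp and scored 26.2. Members on chromosome 4 (17040739 to 17041572, score 16.4) and chromosome 6 (1843244 to 1843742, score 12.97) lay at 15894 and 14643 bp. The remaining one of the 5, on chromosome 13 (21218981 to 21219198, score 5.48), was 14654 bp inside its host. Another gene's TSS was 10359 bp away from it. The host genes of these 5 had 0 promoter peaks, beside 39.1% of the 243 genes whose first-intron peaks all lay 2 kb or more from a TSS. As the neighbours on chromosome 1 share a host gene, fewer genes than peaks stand behind this count. So small a set carries no comparison. Of the 33 members without a placed host TSS, 1 may lie as far: a peak on chromosome 7 (6363455 to 6363805, score 9.85) was 14940 bp from the nearest TSS, that of another gene, and its host gene had a promoter peak.

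Within genes, the first intron was more often the higher with TSS-spanning peaks included than without them. In 443 genes with peaks both in the first intron and in an inner or last intron, the highest first-intron peak scored above the highest later one in 254 and below it in 170, with 19 ties and a median difference of 0.85. Leaving out TSS-spanning peaks left 326 genes, 150 above and 157 below, and a median difference of 0. Over the list, this step drops 24.3% of first-intron peaks but 2.75% of inner and last intron peaks, and it changes the genes compared. What set the rank was therefore not tested. In the 80 genes with both kinds of peak at 2 kb or more, the first intron was higher in 43 and lower in 32, with a median difference of 0.42. Medians of the highest peaks in these 80 genes were 7.19 in first introns and 4.08 in inner and last introns. The difference over all such peaks, 3.27, is a difference of medians. It is not the same measure as 0.42, the median of the differences per gene.

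First-intron peaks scored lower than first-exon peaks, and the sign of this difference depended on the matching. The medians were 5.26 in first introns and 7.60 (7.08 to 8.64, n = 1668) in first exons, a difference of -2.34 that had the same sign on 19 of 19 chromosomes. Of first-exon peaks, 67.9% spanned a TSS. Matched on distance, the difference was 0.96, with first introns higher in 3 of 4 bins, and without TSS-spanning peaks it was 0.42. Matched on distance and length together it was -0.56. In the 104 genes with both, the first-exon peak was higher in 67 and the first-intron peak in 33. Without TSS-spanning peaks, 35 genes had both. The first-exon peak was higher in 11 of these and the first-intron peak in 21, with 3 ties.

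A promoter peak was listed for 825 of the 1779 host genes (46.4%, 44.1 to 48.7%). Over the list, one was listed for 11907 of the 17912 genes that the annotation names for a peak of any class. That whole takes in genes named because of the promoter peak itself. Among the 3479 genes with an inner or last intron peak the share was 61.1% (59.5 to 62.7%). Single-intron genes with an intron peak were near the first-intron share, at 43.5% (39.6 to 47.4%, n = 614). Of the host genes, 545 (30.6%) had an exon peak and 443 (24.9%) a peak in a later intron. A peak at the transcription termination site was listed for 559 (31.4%). The same shares were not computed for genes of the other intron classes or of the whole list, so these values carry no comparison. The share with a promoter peak was 10.6% of the 490 genes whose first-intron peak spanned a TSS, where the peak itself covers part of the promoter. It was 60.0% (57.3 to 62.6%) of the other 1289 genes, against 63.1% (61.5 to 64.7%) of genes whose inner or last intron peaks spanned no TSS. For single-intron genes whose intron peaks spanned no TSS it was 52.3% (47.8 to 56.7%, n = 488).

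In 773 genes whose first-intron peaks spanned no TSS, a promoter peak could be set beside the intron peak of the same gene. The intron peak was higher in 126 and the promoter peak in 640 (82.8%), with 7 ties; medians were 3.22 for the intron and 16.5 for the promoter. For inner and last introns the same share was 85.3%. The 516 genes without a promoter peak had higher first-intron peaks, with a median of 5.48 (4.996 to 6.49) against 3.22 (3.22 to 3.64) in the 773 with one. In genes with inner or last intron peaks, the corresponding medians were 3.64 and 3.64. In single-intron genes they were 5.48 without a promoter peak and 4.08 with one.

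**Figure D4:**
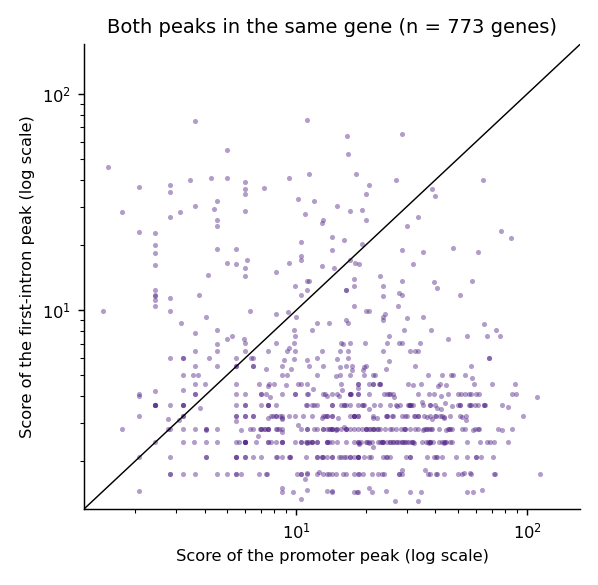
Score of the highest first-intron peak against that of the highest promoter peak of the same gene, on log scales, for the 773 host genes that have both and whose first-intron peaks do not span a TSS. The line marks equal scores: 126 genes lie above it and 640 below it.

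The deep peaks divided in the same way. Among members at 2 kb or more, 270 in genes without a promoter peak had a median of 8.90 (7.21 to 11.03), and 157 in genes with one had 4.08 (3.22 to 4.996). For inner and last intron peaks at these distances the values were 3.64 (n = 1162) and 3.22 (n = 1731). The difference between first and later introns was thus 5.26 in genes without a promoter peak and 0.85 in genes with one. Median distances of the deep first-intron peaks also differed, at 3806.5 bp without and 2743 bp with a promoter peak. Their median lengths were 441 and 380 bp. For inner and last introns the distances were 4096.5 and 3812 bp. The split was not matched on distance or length. A promoter peak was also less frequent where all first-intron peaks were deep, in 39.1% (33.2 to 45.4%) of 243 genes. Where any of them lay closer and none spanned a TSS, the share was 64.8% (61.9 to 67.7%) of 1046. The latter genes may hold deep peaks as well. The direction was the same for inner and last introns, with 59.7% of 1998 genes against 68.1% of 1359. It was also the same for single-intron genes, with 43.7% of 151 against 56.1% of 337.

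For 231 host genes, 13.0% of all, the first-intron peak was the one peak listed. These had a median score of 10.3 (7.56 to 12.97), against 4.82 (4.53 to 5.26) for the 1785 members in genes with further peaks. Part of this went with TSS-spanning peaks, which were 39.4% of the first and 22.4% of the second set. Among peaks that spanned no TSS the medians were 7.12 (n = 140) and 3.64 (n = 1386).

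Most first introns held 1 peak, and 180 held 2 or more (417 peaks). In these the outermost centres were 1413 bp apart at the median and 13512 bp at most, which sets a lower bound on the length of the intron. There were 141 introns with 2 peaks, 27 with 3, 8 with 4, 3 with 5 and 1 with 7.

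The first intron with 7 peaks belonged to VIT_14s0108g00750, a plus-strand gene with 2 introns on chromosome 14. Its peaks ran from 29448749 to 29461152. In order from the TSS they scored 30.3, 5.98, 34.5, 6.49, 2.09, 12.97 and 53.0, with the first centre at 763 bp and the last at 11545 bp. The highest was thus the one farthest from the start, and it lay 11522 bp from the TSS of another gene.

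The 3 introns with 5 peaks were on chromosomes 8, 14 and 18. On chromosome 8 (16558065 to 16568245) the scores, in order from the TSS, were 3.64, 4.53, 17.1, 34.5 and 11.3. On chromosome 14 (5434508 to 5443767) they were 21.4, 26.1, 15.1, 10.3 and 8.12. On chromosome 18 (2352128 to 2356686) they were 1.75, 15.6, 2.82, 13.6 and 4.24. Order within the intron differed among these genes. Of the 4 genes with 5 or more first-intron peaks, 0 had a promoter peak. The share was 60.0% of the 1289 host genes whose first-intron peaks spanned no TSS.

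**Figure D5:**
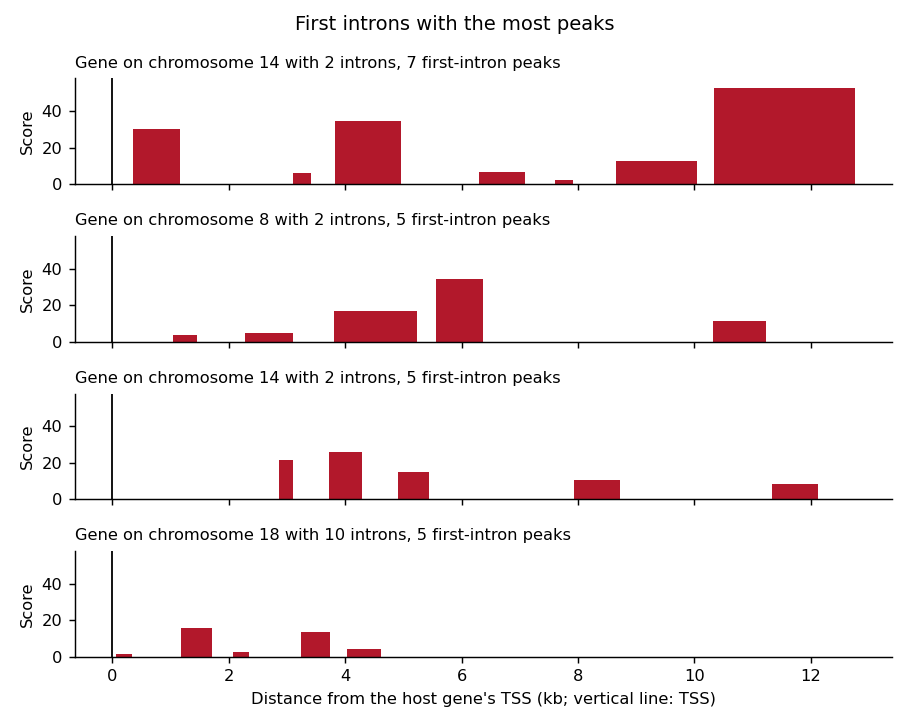
Peaks in the 4 first introns that hold 5 or more, drawn to scale by distance from the host gene's TSS (vertical line at 0, kb); bar width is peak length and bar height the deposited score. The highest bar, 53.0, is the last of 7 in the upper gene on chromosome 14.

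The number of introns of the host gene, 4 at the median and up to 54, was not tied to the score in a steady order. Median scores were 5.48 for genes with 2 introns (n = 495), 4.996 with 3 (n = 322), 4.996 with 4 to 5 (n = 450), 5.48 with 6 to 10 (n = 510) and 4.53 with 11 to 20 (n = 213), and their intervals overlapped. The 741 peaks in introns of genes with 1 intron had a median of 5.48 as well. TSS-spanning peaks were 19.4% of members in genes with 2 introns, 26.1% with 3, 23.3% with 4 to 5 and 29.4% with 6 to 10. They were 23.9% with 11 to 20 and 15.4% (n = 26) with 21 to 54, so this share had no steady order either.

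First introns held between 3.19% and 4.91% of the peaks on each numbered chromosome, and their median score ran from 4.30 to 8.07. The first-intron median was above that of inner and last introns on 19 of 19. For 59 members the nearest TSS was that of another gene, upstream of it in 39 and downstream in 20. These had a median score of 6.49 (4.51 to 14.3) and lay at a median of 3881 bp from that TSS.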

How the data were processed

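The data were 1 peak list from 1 anti-FLAG and 1 control library. The submitters' processing notes name BWA, MACS2 and HOMER but not their roles, versions or settings; the genome build is not given in the sources used here. Each peak has, per the file headers, a position, a score deposited by the authors, an annotation and a signed distance in bp to the nearest TSS. The score, at least 1.30, was used to rank and describe peaks within the list. A peak spans a TSS when this distance is no more than the distance from its centre to its edge.

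Shares carry 95% Wilson and medians 95% exact binomial order-statistic intervals. Matched differences average, over strata with 20 or more peaks of each kind, the differences of medians, weighted by first-intron peaks; there were 10 length strata and distance edges at 500, 1000, 2000 and 5000 bp. No chance test was run. Host TSSs were recovered from the distances of genes with 2 or more peaks. Functions were tested on simulated data. Software was Python 3.11.15 with scipy 1.17.1, numpy 2.4.6, matplotlib 3.10.9 and pandas 2.3.3.

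Members, subsets and tables were chosen with earlier results of these data known. Named peaks are the 10 highest-scoring, 5 longest and 5 farthest from the host TSS where it could be placed, and the introns with the most peaks; the 5 highest-scoring peaks that span no TSS were added after their values were seen. The score comparisons by a distance of 2 kb from the nearest TSS, by presence of a promoter peak and by TSS reach were also added after seeing the data. Motifs and sequences were not analysed here, as no genome sequence was used.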

Additional observations from a re-analysis of the deposited data

How the results depend on the processing

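Of 61 alternative values, 28 stayed within the interval of the reported value, 31 moved beyond it and 2 changed sign. Both sign changes concern first-intron minus first-exon scores (-2.34), which became 0.96 when matched on distance and 0.42 without TSS-spanning peaks; matched on length the difference was -1.02, and on both -0.56. First-intron minus inner and last intron scores (1.68) were 2.85 matched on length, 1.21 matched on distance and length, 0.85 within genes, 0.42 without TSS-spanning peaks and 0 within genes without them. From 2 kb on (3.27) the difference was 4.89 with a border of 3 kb, 5.26 in genes without and 0.85 in genes with a promoter peak, and 0.42 within genes. Values within genes are medians of differences per gene between the highest peaks, a measure unlike the differences of medians beside them. TSS-spanning minus other first-intron scores (14.1) were 6.14 matched on length. First-intron peaks were 3.40% of the highest-scoring and 6.10% of the lowest-scoring quartile group, 3.09% of the list with 3 or more introns required and 5.61% with 1 or more. With peaks at or above the list's median score, the median score was 18.96, length 875 bp, distance 789 bp and TSS-spanning share 48.1%. Peaks under 1 kb gave a score of 4.08, a length of 384 bp and a distance of 1051 bp, and peaks that span no TSS 3.64, 368 bp and 1199.5 bp. With 1 peak per gene, length was 484 bp and distance 872 bp; with 3 or more introns, distance was 897 bp. Counting peak edges within 200 bp or 500 bp of a TSS raised the TSS-spanning share to 29.9% and 38.4%. Smaller subsets by score and length, and wider borders, shift such values by construction; for the other moved values the cause was not tested. The comparisons from 2 kb on and of TSS-spanning with other peaks, with their alternatives, and the one within genes without TSS-spanning peaks were chosen after seeing the data. The planned motif share was not run. No paired analysis was possible because there is a lone library on each side, and leaving out a replicate was not possible either. Without read depth, limits on low-scoring peaks are unknown.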
